A study of Mus musculus with 6 samples.

Results

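Genes for transcription factors of the heart, lung and limb mesenchyme were followed in fibroblasts of 3 origins. The 10 genes were taken by name from 57180 gene identifiers, and all 10 were among the 18143 genes that could be tested. Of these, 7 code for T-box factors (Tbx2, Tbx3, Tbx4, Tbx5, Tbx15, Tbx18 and Tbx20), 2 for basic helix-loop-helix factors (Hand2 and Tcf21) and 1 for the zinc finger factor Wt1. Polyadenylated RNA was sequenced from mouse cardiac, lung and tail tip fibroblasts, each infected with an adenovirus carrying Cre recombinase (Ad-Cre) or green fluorescent protein (Ad-GFP). The series names Ad-Cre as the treatment that removes Gata4 and Ad-GFP as its control, while the genotype field of all 6 libraries reads WT. Each of the 6 groups was 1 library, and all cells were grown in DMEM with 10% FBS and collected at 48 h. The sources used here give no strain, age or number of animals for a culture.

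T-box factors share a DNA-binding domain and are used in different combinations along the body, so that the set a cell transcribes is known to reflect where its lineage came from. In the heart, Tbx20, Tbx5 and the bHLH factor Hand2 act with Gata4, while Tbx18, Tcf21 and Wt1 mark the epicardium, the outer cell layer that gives rise to most cardiac fibroblasts. Tbx4 and Tbx5 act in the mesenchyme of lung and limb buds, and Tbx15 in the mesenchyme of limb, trunk skin and skeleton.

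Total counts ran from 26170316 to 33779069 reads per library, and a gene with 0 reads may have up to 3 reads, or 0.0906 to 0.117 CPM (counts per megaread of the scaled library). All 8 fibroblast markers were detected in every library, with summed levels of 7732 to 23097 CPM. Single markers ranked the origins differently. Mean Dcn was 69.8 CPM in cardiac, 556 CPM in lung and 869 CPM in tail tip fibroblasts. Mean Col1a1 was 7348 CPM in cardiac, 1351 CPM in lung and 6894 CPM in tail tip fibroblasts. Gata4, the gene that Ad-Cre is meant to remove, was at 149 CPM in the cardiac Ad-Cre and 147 CPM in the cardiac Ad-GFP library (ratio 1.02, 95% interval 0.978 to 1.06). In lung it was at 19.2 CPM in the Ad-Cre and 14.7 CPM in the Ad-GFP library (ratio 1.31, 1.14 to 1.49), so neither library labelled Ad-Cre had less Gata4 RNA. Which part of Gata4 a deletion would cover is not given in the sources used here, and whether the labels hold was not tested further. Every direction given for Ad-Cre therefore belongs to the libraries labelled Ad-Cre.

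Origins were compared with edgeR's quasi-likelihood test on all 18143 genes in 1 model with origin and virus as terms. A gene was called where the Benjamini-Hochberg adjusted p was under 0.05. The 2 libraries of an origin carried different viruses and nothing says they came from separate animals. The spread behind these p-values is thus how far the ratios of Ad-Cre to Ad-GFP differ between origins, which may be technical. Over all tested genes the log2 ratio had a standard deviation of 1.01 in the cardiac, 0.54 in the lung and 0.39 in the tail tip pair. In bulk RNA, fewer cells of a type and less RNA per cell cannot be told apart.

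**Figure D1:**
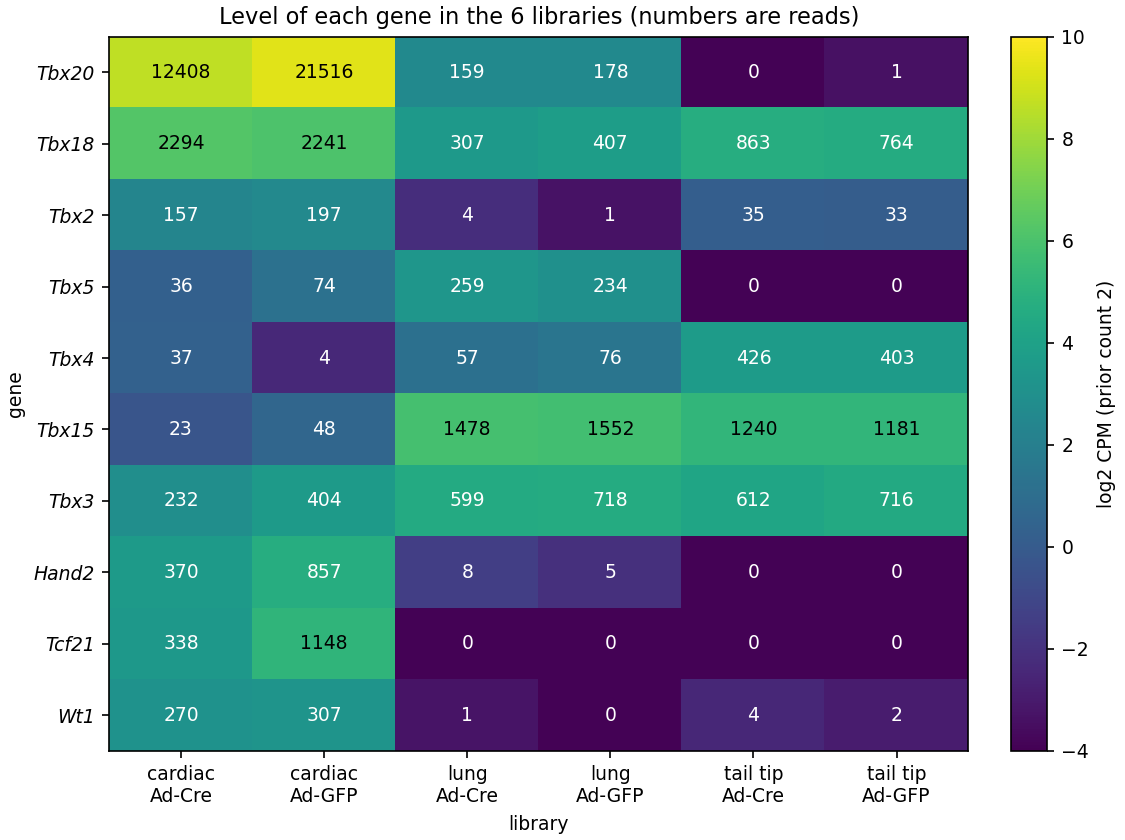
Level of each of the 10 genes in each of the 6 libraries, with colour for log2 CPM (prior count 2) and the number of reads printed in each cell. Tbx20, Hand2, Tcf21 and Wt1 are highest in both cardiac libraries, Tbx15 and Tbx3 in the lung libraries, and Tbx4 in the tail tip libraries.

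Of the T-box genes, Tbx20, Tbx18 and Tbx2 stood highest in cardiac fibroblasts. Tbx20, a T-box repressor and activator needed for heart growth, was at 406 CPM in the cardiac Ad-Cre and 661 CPM in the cardiac Ad-GFP library. It was at 6.20 CPM in the lung Ad-Cre and 6.11 CPM in the lung Ad-GFP library. In tail tip fibroblasts it had 0 reads in the Ad-Cre library and 1 read in the Ad-GFP library. The 3 origins did not overlap, and the order was cardiac, lung, tail tip. The log2 fold change was 6.40 (SE 0.26, adjusted p = 1.35e-05, edgeR) for cardiac against lung. The counts for cardiac against tail tip were 33924 reads against 1 read, a ratio of 34900 with a counting interval of 6263 to 1.38e+06 (edgeR adjusted p = 1.21e-05). Lung against tail tip stood at 337 reads against 1 read, a ratio of 399 (71.2 to 15812, edgeR adjusted p = 2.50e-05). Tbx20 was kept for testing by its cardiac and lung libraries alone, so its adjusted p-values against tail tip lend no weight.

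Tbx18, which marks epicardial and pericyte lineages, was transcribed in all 3 origins. It was at 75.1 CPM in the cardiac Ad-Cre and 68.9 CPM in the cardiac Ad-GFP library. Lung fibroblasts had 12.0 CPM with Ad-Cre and 14.0 CPM with Ad-GFP. Tail tip fibroblasts had 26.1 CPM with Ad-Cre and 24.0 CPM with Ad-GFP. No library of one origin overlapped with those of another, and lung was lowest. The log2 fold change was 2.47 (SE 0.18, adjusted p = 9.43e-05) for cardiac against lung, 1.52 (SE 0.17, adjusted p = 0.000664) for cardiac against tail tip and -0.95 (SE 0.17, adjusted p = 0.0032) for lung against tail tip, all by edgeR.

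Tbx2, a T-box repressor of heart chamber genes in the embryo, followed the same order at lower levels. It was at 5.14 CPM in the cardiac Ad-Cre and 6.06 CPM in the cardiac Ad-GFP library. Lung libraries held 4 reads with Ad-Cre and 1 read with Ad-GFP, and tail tip libraries 1.06 CPM with Ad-Cre and 1.04 CPM with Ad-GFP. Cardiac fibroblasts were above tail tip and tail tip above lung, without overlap. The log2 fold change for cardiac against lung was 5.88 (SE 0.67, adjusted p = 0.00071, edgeR). It was 2.42 (SE 0.51, adjusted p = 0.0104, edgeR) for cardiac against tail tip, a call lost without the tail tip Ad-Cre library (adjusted p = 0.0601). Lung was below tail tip by a log2 fold change of -3.46 (SE 0.68, adjusted p = 0.0046, edgeR). Tbx2 was kept for testing by its cardiac and tail tip libraries alone, so its adjusted p-values for comparisons with lung lend no weight.

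The pair of genes used in lung and limb buds split between origins. Tbx5, which acts in heart, lung and forelimb mesenchyme, was at 1.18 CPM in the cardiac Ad-Cre and 2.27 CPM in the cardiac Ad-GFP library. In lung it was at 10.1 CPM with Ad-Cre and 8.03 CPM with Ad-GFP. Both tail tip libraries held 0 reads. Lung fibroblasts were thus highest and tail tip fibroblasts below the limit of detection, and cardiac libraries lay between them. The log2 fold change for cardiac against lung was -2.44 (SE 0.46, adjusted p = 0.0089, edgeR), a call lost without the lung Ad-Cre library (adjusted p = 0.104). For tail tip a floor of 3 reads over both of its libraries was used. Tbx5 stood 37.7-fold above this floor in cardiac fibroblasts (lower end of the counting interval 30.2, edgeR adjusted p = 0.0016). In lung fibroblasts it stood 195-fold above the floor (lower end 158, edgeR adjusted p = 0.000195). Tbx5 was kept for testing by its cardiac and lung libraries alone, so its adjusted p-values against tail tip lend no weight.

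Tbx4, which is known from lung mesenchyme and hindlimb, was highest in tail tip fibroblasts, at 12.9 CPM with Ad-Cre and 12.7 CPM with Ad-GFP. Lung had 2.22 CPM with Ad-Cre and 2.61 CPM with Ad-GFP. The cardiac Ad-Cre library had 37 reads and the cardiac Ad-GFP library 4 reads, or 1.21 and 0.123 CPM. The origins did not overlap, but the cardiac libraries lay far apart. Cardiac against tail tip gave a log2 fold change of -4.41 (SE 0.72, adjusted p = 0.0037, edgeR), which was -6.68 without the cardiac Ad-Cre library and -3.40 without the cardiac Ad-GFP library. Cardiac against lung was not called (log2 fold change -2.03, SE 0.71, adjusted p = 0.0604, edgeR). It was called without the cardiac Ad-Cre library, at -4.29, and without the cardiac Ad-GFP library, at -0.99, as well as without either tail tip library. Lung against tail tip was called (-2.38, SE 0.63, adjusted p = 0.0166, edgeR), but not without the lung Ad-Cre library (adjusted p = 0.150) or the tail tip Ad-GFP library (adjusted p = 0.0634).

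Tbx15 and Tbx3 were low in cardiac and high in both other origins. Tbx15, which acts in limb, skeletal and skin mesenchyme, was at 0.753 CPM in the cardiac Ad-Cre and 1.48 CPM in the cardiac Ad-GFP library. It was at 57.6 CPM in lung with Ad-Cre and 53.3 CPM with Ad-GFP. Tail tip fibroblasts had 37.5 CPM with Ad-Cre and 37.2 CPM with Ad-GFP. Cardiac fibroblasts were lower than lung by a log2 fold change of -5.64 (SE 0.30, adjusted p = 3.04e-05, edgeR) and lower than tail tip by -5.06 (SE 0.29, adjusted p = 4.64e-05, edgeR). Lung and tail tip libraries did not overlap, yet their difference did not pass (log2 fold change 0.57, SE 0.23, adjusted p = 0.0725, edgeR). It passed without either cardiac library and without the lung Ad-GFP library (adjusted p = 0.0447).

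Tbx3, a T-box repressor known from the cardiac conduction system and the limb, differed between origins by no more than 1.30 on the log2 scale. It was at 7.60 CPM in the cardiac Ad-Cre and 12.4 CPM in the cardiac Ad-GFP library. Lung had 23.4 CPM with Ad-Cre and 24.6 CPM with Ad-GFP, and tail tip 18.5 CPM with Ad-Cre and 22.5 CPM with Ad-GFP. Cardiac fibroblasts were lower than lung (log2 fold change -1.30, SE 0.22, adjusted p = 0.0037, edgeR) and than tail tip (-1.06, SE 0.22, adjusted p = 0.0094, edgeR). The libraries of lung and tail tip did not overlap, and their log2 fold change of 0.24 (SE 0.21, adjusted p = 0.380, edgeR) did not pass.

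The bHLH genes and Wt1 had nearly all of their reads in cardiac fibroblasts. Hand2, Tcf21 and Wt1 were kept for testing by their cardiac libraries alone, so they had to differ there. Their adjusted p-values for cardiac against another origin therefore lend no weight. Hand2, a partner of Gata4 in the heart, was at 12.1 CPM in the cardiac Ad-Cre and 26.3 CPM in the cardiac Ad-GFP library. Lung held 8 reads with Ad-Cre and 5 reads with Ad-GFP, and both tail tip libraries 0 reads. The order was cardiac, lung, tail tip, without overlap. The log2 fold change for cardiac against lung was 6.23 (SE 0.53, adjusted p = 0.000426, edgeR). In cardiac fibroblasts Hand2 stood 421-fold above the floor over both tail tip libraries (lower end of the counting interval 342, edgeR adjusted p = 0.000202). In lung fibroblasts it stood 5.13-fold above that floor (lower end 3.61, edgeR adjusted p = 0.0172).

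Tcf21, which directs epicardial cells to the fibroblast fate, was at 11.1 CPM in the cardiac Ad-Cre and 35.3 CPM in the cardiac Ad-GFP library. It had 0 reads in each of the 4 lung and tail tip libraries. The floor was again 3 reads over both libraries of the origin. Cardiac Tcf21 stood 430-fold above the lung floor (lower end of the counting interval 349, edgeR adjusted p = 0.000196). It stood 510-fold above the tail tip floor (lower end 414, edgeR adjusted p = 0.000175).

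Wt1, the zinc finger factor of epicardium and mesothelium, was at 8.84 CPM in the cardiac Ad-Cre and 9.44 CPM in the cardiac Ad-GFP library. Lung held 1 read with Ad-Cre and 0 reads with Ad-GFP, and tail tip 4 reads with Ad-Cre and 2 reads with Ad-GFP. Both cardiac libraries stood above all others, and the cardiac p-values that follow carry the limit given for Hand2. Cardiac against lung was 577 reads against 1 read, a ratio of 501 (89.6 to 19829, edgeR adjusted p = 0.000199), and cardiac against tail tip had a ratio of 98.9 (45.2 to 271, edgeR adjusted p = 0.000257). Lung and tail tip were not told apart (edgeR adjusted p = 0.163).

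Mesothelial cells also transcribe Wt1. Of 6 tested mesothelial markers, 4 (Upk3b, Upk1b, Lrrn4 and Krt19) were higher in cardiac than in lung and 1, Msln, was lower. Of all tested genes, 38.4% were called in that comparison. The 7 markers summed to 126 CPM in the cardiac Ad-Cre and 53.5 CPM in the cardiac Ad-GFP library, with Muc16 at 0 reads in both. The lung sums were 197 CPM with Ad-Cre and 156 CPM with Ad-GFP, of which Msln alone made up 193 CPM with Ad-Cre and 153 CPM with Ad-GFP. Upk3b and Lrrn4 had 0 reads in both lung libraries, and Upk1b had 1 read with Ad-Cre and 0 reads with Ad-GFP. Tail tip libraries had 9.21 CPM with Ad-Cre and 7.36 CPM with Ad-GFP. The 6 cardiomyocyte markers summed to 55.8 CPM in the cardiac Ad-Cre and 76.9 CPM in the cardiac Ad-GFP library, against 2.78 to 35.0 CPM elsewhere. Tnnt2 alone made up 51.7 CPM of the cardiac Ad-Cre and 75.1 CPM of the cardiac Ad-GFP sum, and 34.7 CPM in the lung Ad-Cre library. In the cardiac pair Myh6 had 24 reads with Ad-Cre and 0 reads with Ad-GFP, Myl7 57 reads with Ad-Cre and 9 reads with Ad-GFP, and Actn2 1 read with Ad-Cre and 20 reads with Ad-GFP. Ryr2 had 30 reads with Ad-Cre and 19 reads with Ad-GFP. Macrophage and leukocyte markers summed to 1064 CPM in the tail tip Ad-Cre and 1289 CPM in the tail tip Ad-GFP library, against 14.5 to 217 CPM in the other origins. The part of these cells in the levels of the 10 genes was not tested.

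The starts of 4 genes that were highest in cardiac fibroblasts are shown with the motif of GATA factors, since Gata4 is the gene that Ad-Cre is meant to remove. RefSeq promoter sequence (GRCm38.p6) was at hand for 5 of the 10 genes, and the 250 bases before the start of 4 of them follow, each 5′ to 3′ on the strand of the gene. They are Hand2 at chr8:57320733-57320982 on the plus strand, Tcf21 at chr10:22820144-22820393, Tbx20 at chr9:24774304-24774553 and Tbx18 at chr9:87731261-87731510, the last 3 on the minus strand. Capitals mark matches, on either strand, to the GATA motif, searched as the letters GATA with A or T before them and A or G after them.
Hand2: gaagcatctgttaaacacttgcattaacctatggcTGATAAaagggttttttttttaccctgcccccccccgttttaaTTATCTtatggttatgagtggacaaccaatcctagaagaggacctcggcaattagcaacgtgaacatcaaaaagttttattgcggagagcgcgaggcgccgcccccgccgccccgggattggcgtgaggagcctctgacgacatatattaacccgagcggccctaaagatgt
Tcf21: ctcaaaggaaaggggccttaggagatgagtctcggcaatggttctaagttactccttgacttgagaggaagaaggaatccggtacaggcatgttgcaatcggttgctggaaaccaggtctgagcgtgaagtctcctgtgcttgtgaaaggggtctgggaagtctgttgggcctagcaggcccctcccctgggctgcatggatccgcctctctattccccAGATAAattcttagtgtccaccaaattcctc
Tbx20: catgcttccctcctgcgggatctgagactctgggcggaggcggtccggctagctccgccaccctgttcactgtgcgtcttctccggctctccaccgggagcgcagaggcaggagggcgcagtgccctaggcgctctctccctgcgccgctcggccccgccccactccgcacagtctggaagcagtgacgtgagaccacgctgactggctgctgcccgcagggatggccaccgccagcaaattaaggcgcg
Tbx18: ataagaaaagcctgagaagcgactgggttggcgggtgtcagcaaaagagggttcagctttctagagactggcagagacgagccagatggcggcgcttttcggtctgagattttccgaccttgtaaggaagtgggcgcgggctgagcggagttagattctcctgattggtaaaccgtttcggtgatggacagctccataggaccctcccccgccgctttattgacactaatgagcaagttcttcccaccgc
The Hand2 promoter held 2 GATA matches and the Tcf21 promoter 1, while Tbx20, Tbx18 and Tbx4, whose sequence is not shown, had none. A GATA match was found in 26.5% of 32851 promoters of this length. The T-box motif searched, GGTGTGA on either strand, overlaps with no GATA motif and was in 3.33% of the promoters and in none of the 5. A match is a run of letters and no measured site, and its absence says only that these letters are not in this window.

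Across the 10 genes, 6 were higher and 3 lower in cardiac than in lung fibroblasts, where 38.4% of all tested genes were called (20.8% higher and 17.6% lower). Against tail tip, cardiac fibroblasts were higher for 7 and lower for 3 of the 10 genes, with 33.5% of all genes called (15.5% higher and 18% lower). In lung against tail tip 3 were higher (Tbx5, Tbx20 and Hand2), 3 were lower (Tbx2, Tbx4 and Tbx18) and 4 were not called, with 50.6% of all genes called (22.3% higher and 28.2% lower). The counts carry a limit of the filter on low counts. Hand2, Tcf21 and Wt1 passed it through the cardiac libraries alone, so they had to differ there. Tbx5 and Tbx20 passed it without a tail tip library, and Tbx2 without a lung library. The shares above therefore lend no weight to a statement about the 10 genes as a group.

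The makeup of the T-box family was compared within a library as reads per kilobase of exon, summed over 16 T-box genes without Mga. In cardiac fibroblasts Tbx20 took 62.7% of this sum in the Ad-Cre and 73.8% in the Ad-GFP library, and Tbx18 29.5% with Ad-Cre and 19.6% with Ad-GFP. Tbx15 led in lung, with 60.3% in the Ad-Cre and 58.2% in the Ad-GFP library, followed by Tbx3 with 13.8% in the Ad-Cre and 15.2% in the Ad-GFP library. It also led in tail tip, with 44.0% in the Ad-Cre and 43.5% in the Ad-GFP library. There Tbx18 took 24.3% with Ad-Cre and 22.3% with Ad-GFP, and Tbx4 16.7% with Ad-Cre and 16.3% with Ad-GFP. Lung and tail tip fibroblasts thus shared their leading T-box gene. Their shares differed in Tbx5 and Tbx4, and also in Tbx18, Tbx20 and Tbx2. Tbx18 took 9.95% in the lung Ad-Cre and 12.1% in the lung Ad-GFP library. For Tbx20 the lung shares were 2.03% with Ad-Cre and 2.08% with Ad-GFP, against 0% and 0.0115% in tail tip. For Tbx2 they were 0.169% with Ad-Cre and 0.0388% with Ad-GFP, against 1.28% and 1.26% in tail tip. Tbx5 was 8.47% in the lung Ad-Cre and 7.03% in the lung Ad-GFP library, with no read in tail tip, and Tbx4 was 2.56% in the lung Ad-Cre and 3.14% in the lung Ad-GFP library. The 9 T-box genes outside the 7 followed here made up 0.649% to 2.65% of the sum. In CPM, the 16 genes summed to 500 in the cardiac Ad-Cre and 754 in the cardiac Ad-GFP library and to between 96.7 and 113 in the other 4.

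**Figure D2:**
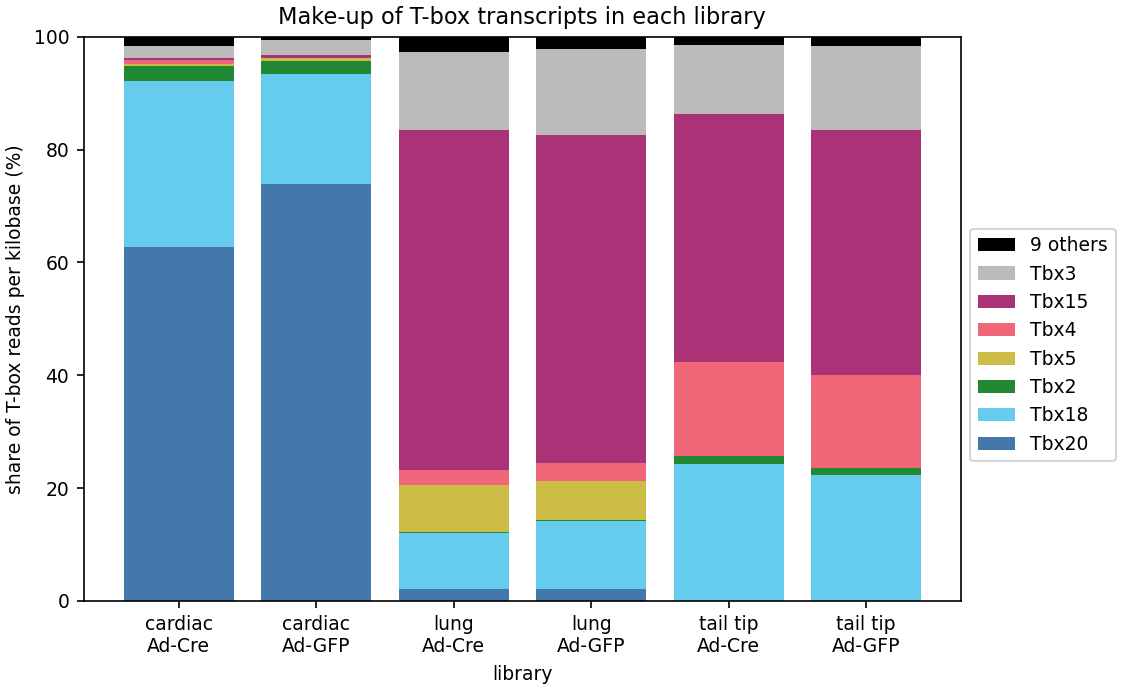
Share of each T-box gene in the reads per kilobase of 16 T-box genes, in percent, in each of the 6 libraries. Tbx20 fills 62.7% and 73.8% of the cardiac Ad-Cre and Ad-GFP bars, and Tbx15 leads in all 4 lung and tail tip bars.

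Some of the genes lie beside each other. In the RefSeq gene order of GRCm38.p6, Tbx2 and Tbx4 are adjacent protein-coding genes on chromosome 11, between Bcas3 and Brip1, and Tbx3 and Tbx5 are adjacent on chromosome 5, between Med13l and Rbm19. Adjacent genes did not share a pattern of levels, since Tbx2 was highest in cardiac and Tbx4 in tail tip fibroblasts, and Tbx3 was present in tail tip libraries where Tbx5 had 0 reads. The flanking genes differed between origins too. Bcas3, the neighbour of Tbx2, had log2 fold changes of 1.15 for cardiac against lung and -1.72 for lung against tail tip, and Brip1 one of 2.02 for lung against tail tip (edgeR adjusted p = 0.0032, 0.000292 and 0.00029).

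Hand2 has an antisense neighbour, Hand2os1, whose transcript is known to start beside Hand2 and run the other way. Hand2os1 had 201 reads in the cardiac Ad-Cre and 200 reads in the cardiac Ad-GFP library, and 0 reads in the 4 others. The exons of Hand2 and Hand2os1 share 461 bases, which is 19.6% of Hand2, and the strand setting of the counting is not given in the sources used here, so reads from the shared bases may be of either gene. Wt1os, antisense to Wt1 with 0 shared exon bases, had 2 reads in the cardiac Ad-Cre and 29 reads in the cardiac Ad-GFP library and none elsewhere.

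Lists of related genes were read beside the 10. Of all tested genes, 38.4% were called for cardiac against lung, 33.5% for cardiac against tail tip and 50.6% for lung against tail tip. The counts of a list were not tested against these shares. Of 8 tested cardiac cofactors of T-box factors, 6 were higher and 2 lower in lung than in tail tip. Gata4 had a log2 fold change of 8.39 there (SE 0.32, edgeR adjusted p = 5.19e-06). Nkx2-5, a homeobox factor of the heart, had one of 8.19 (SE 0.79, edgeR adjusted p = 0.000169). In cardiac against lung, 3 were higher and 2 lower. Gata4 was higher in cardiac fibroblasts by a log2 fold change of 3.14 (SE 0.18, edgeR adjusted p = 3.6e-05). Nkx2-5 and Isl1, a factor of cardiac progenitors, were lower by -3.66 (SE 0.54, edgeR adjusted p = 0.0021) and -4.33 (SE 1.31, edgeR adjusted p = 0.0365). Isl1 had 0 reads in the cardiac Ad-Cre and 16 reads in the cardiac Ad-GFP library. Of 11 tested epicardial genes other than the 10, 4 were higher and 3 lower in cardiac than in lung, and 4 higher and 5 lower than in tail tip. Aldh1a2, which makes retinoic acid in the epicardium, had log2 fold changes of 11.0 against lung and 6.44 against tail tip. The list of 13 summed to 268 CPM in the cardiac Ad-Cre and 350 CPM in the cardiac Ad-GFP library, and to 644 CPM in the tail tip Ad-Cre and 740 CPM in the tail tip Ad-GFP library. The tail tip sum was carried by Tgfbi, Snai1 and Snai2, with means of 395, 144 and 104 CPM, which are transcribed in many mesenchymal cells and were lower in cardiac than in tail tip fibroblasts. The 4 genes that were higher in cardiac fibroblasts than in both other origins were Aldh1a2, Aldh1a1, Sema3d and Gpm6a.

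Genes of the lung mesenchyme that act with Tbx4 and Tbx5 were split as well. Of 10 tested, 3 were higher and 4 lower in cardiac than in lung, where 38.4% of all tested genes were called. In lung against tail tip 5 were higher and 2 lower, where 50.6% of all tested genes were called. Fgf10, the growth factor that lung Tbx4 and Tbx5 are known to induce, had log2 fold changes of -6.57 for cardiac against lung and -6.82 for cardiac against tail tip. Its mean was 47.2 CPM in lung and 56.1 CPM in tail tip, and the libraries of these origins overlapped. Wnt2b was higher in cardiac than in lung by a log2 fold change of 2.79 (SE 0.58, edgeR adjusted p = 0.0089). Whether Tbx4 or Tbx5 has a part in these levels was not tested. Among 11 tested bHLH relatives and partners of Hand2 and Tcf21, 2 were higher and 4 lower in cardiac than in lung, with the E protein gene Tcf3 at -1.82 (SE 0.27, edgeR adjusted p = 0.0024) and Twist2 at -1.55 (SE 0.21, edgeR adjusted p = 0.0014). Of 6 tested cofactors and modifiers of Wt1, 1 was higher and 2 lower in cardiac than in lung. Against tail tip 3 were higher and 0 lower, where 33.5% of all tested genes were called. Of the other T-box genes 3 of 10 could be tested. Mga, a large T-box and Max-binding protein, was lower in cardiac than in lung (log2 fold change -0.81, SE 0.16, edgeR adjusted p = 0.0074).

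The genes closest in pattern were found by the root mean square difference of centred log2 CPM over the 6 libraries, among 10516 candidates. Tcf21 was nearest to Lrrn4, at 0.090, and Tnfsf18, at 0.57. Lrrn4 is one of the 7 mesothelial markers. Like Tcf21 it had 0 reads in every lung and tail tip library, so the closeness rests on the 2 cardiac libraries. There the ratio of Ad-Cre to Ad-GFP was 0.314 for Tcf21 and 0.293 for Lrrn4. The mesothelial markers Upk3b, Upk1b, Msln, Krt19 and Bnc1 had ratios of 1.71 to 9.84 in that pair. Tbx3 was nearest to Renbp, at 0.099, and Tbx18 to Tmem38a, at 0.13. Tbx15 was nearest to Sdk1 (0.31), Tbx2 to Jup (0.32), Wt1 to Sh3tc2 (0.41), Tbx4 to C3 (0.46) and Tbx5 to Shox2 (0.46). Hand2 was nearest to Folr1, at 0.70. The profile of Tbx20 had no near match, its nearest gene being Gata4 at 1.41.

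No change common to the 3 origins between libraries labelled Ad-Cre and Ad-GFP was called for any of the 10 genes, nor for any other gene (0%), by edgeR. The smallest adjusted p over all genes was 0.9996, 367 genes had an unadjusted p under 0.05, DESeq2 called 3 genes and limma-voom 0. The common log2 fold change was -1.65 (SE 0.39) for Tcf21, -0.69 (SE 0.47) for Hand2, -0.40 (SE 0.22) for Tbx20 and -0.35 (SE 0.17) for Tbx3, and between -0.26 and 0.54 for the other 6, with SEs of 0.14 to 0.54. With 2 residual degrees of freedom, a p that misses the threshold does not show that levels were alike. In Tcf21 the estimate rests on the cardiac pair, since no other library had a read.

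Within an origin, 1 library stood against 1, so there was no replicate check and no test, and intervals cover counting error only. In cardiac fibroblasts 6 of the 10 genes had a ratio of Ad-Cre to Ad-GFP whose interval lay below 1, where 33.2% of all tested genes did, and 2 had one above 1, where 31.8% did. Tcf21 was at 0.314 (95% interval 0.277 to 0.354), Hand2 at 0.460 (0.406 to 0.520) and Tbx15 at 0.510 (0.296 to 0.856). Tbx5 was at 0.518 (0.338 to 0.782), Tbx3 at 0.612 (0.518 to 0.721) and Tbx20 at 0.614 (0.601 to 0.628). These genes stand at different levels, from 23 reads for Tbx15 to 12408 reads for Tbx20 in the Ad-Cre library. Tbx18 had a ratio of 1.09 (1.03 to 1.16) and Tbx4 one of 9.85 (3.54 to 38.1), from 37 against 4 reads. The intervals of Tbx2 (0.849, 0.684 to 1.05) and Wt1 (0.937, 0.792 to 1.11) held 1. The epicardial genes Tcf21, Tbx18 and Wt1 therefore had ratios that differed beyond counting error for Tcf21 against both others.

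On the log2 scale with a prior count of 2, Tbx4 was at least 2-fold higher and Hand2 and Tcf21 at least 2-fold lower in the cardiac Ad-Cre library, where 20.3% of all tested genes differed by as much (11.3% higher and 9.07% lower). The median log2 ratio of the 10 genes was -0.70, against 0 for all tested genes. Other features of the cardiac pair differed alongside. Of the 6 tested mesothelial markers 4 were at least 2-fold higher in the cardiac Ad-Cre library and 1, Lrrn4, at least 2-fold lower, and the 7 epithelial markers summed to 104 CPM in the Ad-Cre and 9.44 CPM in the Ad-GFP library. The 8 fibroblast markers summed to 14638 CPM in the cardiac Ad-Cre and 23097 CPM in the cardiac Ad-GFP library. Of these 8, 2 were at least 2-fold lower with Ad-Cre and 0 at least 2-fold higher. Pdgfra went against the sum, with a ratio of 1.52 (1.48 to 1.56). The 8 macrophage and leukocyte markers summed to 136 CPM with Ad-Cre and 217 CPM with Ad-GFP. Between the cardiac libraries 116 tested genes had no read on one side and 20 reads or more on the other. There were 2 such genes in the lung pair and 0 in the tail tip pair. Their part in the ratios was not tested.

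The antisense neighbours had other ratios than their partners in the cardiac pair. Hand2os1 had a ratio of 1.07 (0.876 to 1.31), whereas Hand2 was at 0.460. Wt1os had a ratio of 0.0735 (0.00849 to 0.290) from 2 against 29 reads, whereas Wt1 was at 0.937.

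Lung and tail tip pairs lay closer together. In lung, Tbx5 had a ratio of Ad-Cre to Ad-GFP of 1.26 (1.05 to 1.51), Tbx15 one of 1.08 (1.01 to 1.16) and Tbx18 one of 0.857 (0.736 to 0.996). Over all tested genes, 20.8% had an interval above 1 in lung and 18.6% one below. The intervals of Tbx3 (0.947), Tbx4 (0.852), Tbx20 (1.01), Hand2 (1.82) and Tbx2 (4.54, from 4 against 1 read) held 1. By the log2 ratio, 1 of the 10 genes, Tbx2, was past 2-fold, where 7.69% of all tested genes were (4.87% higher and 2.82% lower). In tail tip, where 15.4% of all tested genes had an interval above 1 and 14.2% one below, Tbx3 had a ratio of 0.821 (0.736 to 0.916), and the intervals of Tbx2, Tbx4, Tbx15, Tbx18 and Wt1 held 1. None of the 10 was past 2-fold there, where 3.1% of all tested genes were (1.53% higher and 1.58% lower). The median log2 ratio of the 10 genes was 0.07 in lung and 0.01 in tail tip, against 0.03 and 0.01 over all tested genes. Tbx20, at 0.614 in the cardiac pair, was at 1.01 (0.814 to 1.26) in the lung pair. Of the 10 genes, 3 (Tbx5, Tbx15 and Tbx18) had an interval above 1 in one origin and below 1 in another, a share near the 26.8% over all tested genes. Whether ratios differ between origins could not be tested with 1 library a group.

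**Figure D3:**
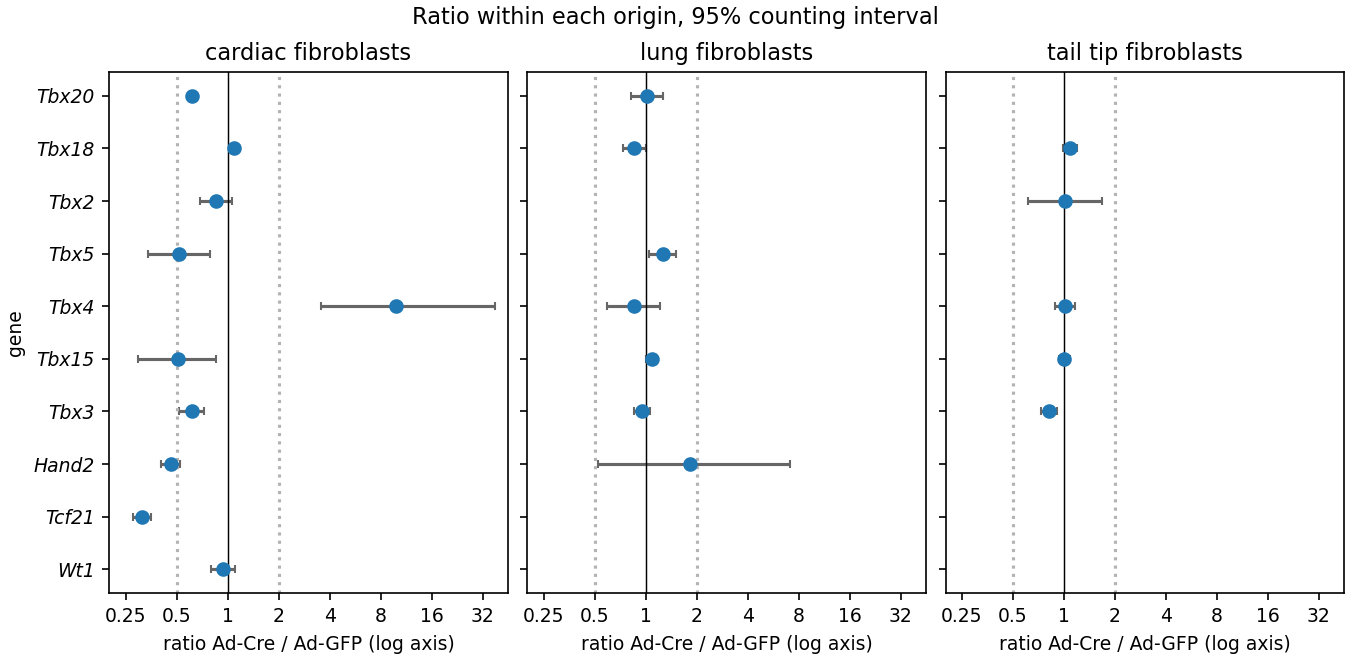
Ratio of CPM in the Ad-Cre to the Ad-GFP library for the 10 genes within each origin, on a log axis, with exact 95% intervals for counting error and dotted lines at 2-fold; pairs with fewer than 10 reads in sum are not drawn. In the cardiac pair the intervals of 6 genes lie below 1 (33.2% of all tested genes), with Tcf21 lowest at 0.314, and in the tail tip pair that of Tbx3 does, at 0.821 (14.2% of all tested genes).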

How the data were processed

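The authors deposited raw read counts for each Ensembl gene, without normalisation, and columns were assigned to libraries through the column names that the labels give. The labels place those columns in a matrix whose title names another subject. Per the submitters' processing notes, STAR 2.0.7 and the mm39 build were used, with no role stated. For the counting tool, annotation release and strand setting, the choice is not given in the sources used here. Symbols and exon lengths came from the GENCODE M21 annotation of GRCm38, which named 51884 of 57180 identifiers, and promoters and gene order from RefSeq GRCm38.p6.

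Low genes were removed with filterByExpr of edgeR 4.0.16 (minimum count 10, R 4.3.3), which left 18143. TMM factors of 0.964 to 1.03 scaled the libraries. A robust quasi-likelihood model with origin and virus as additive terms left 2 residual degrees of freedom, with a common dispersion of 0.0455. Tests were two-sided and adjusted by Benjamini-Hochberg over all tested genes. The SE of an edgeR log2 fold change is its absolute value divided by the square root of the quasi-likelihood F statistic. CPM are counts per megaread of the TMM-scaled library of tested genes. Ratios have exact conditional binomial 95% intervals, and folds against 0 reads use 3 reads over the group. Such a fold takes the higher count as it stands, so the lower end of the interval is printed beside it. Log2 ratios have a prior count of 2. Reads carry no molecular identifiers and may repeat a molecule, so these intervals and floors hold for counting error alone.

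Alternatives were DESeq2 1.42.0, limma-voom (limma 3.58.1), other scalings, other filters and prior counts, and leaving out each library or origin. Examples from other lists were up to 3 genes per comparison with a mean of 1 CPM or more and the largest absolute difference, and not all are printed. Candidates for likeness had a mean of at least 5 CPM. The 10 genes and the lists were chosen with earlier results of these data known. The code was tested on simulated data.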

Additional observations from a re-analysis of the deposited data

Results flagged for a closer look

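For 3 genes the ratio of Ad-Cre to Ad-GFP lay above 1 in one origin and below 1 in another, with 95% intervals for counting error that did not hold 1 in either. The same was found for 26.8% of all tested genes, so the count is near the share over all genes. Tbx5 had a ratio of 1.26 in the lung pair and 0.518 in the cardiac pair. Tbx15 had a ratio of 1.08 in the lung pair and 0.510 in the cardiac pair, from 23 reads in the cardiac Ad-Cre and 48 reads in the cardiac Ad-GFP library. For Tbx18 the cardiac pair gave 1.09 and the lung pair 0.857. With 1 library per group these differences between origins were not tested.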

How the results depend on the processing

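Between origins, 360 log2 fold changes of the 10 genes under the alternatives kept their direction and their side of the threshold, 12 gained a call, 5 lost one and 0 turned round. With limma-voom the call of Tbx5 for cardiac against lung was lost (adjusted p = 0.121). Tbx4 for cardiac against lung was gained with DESeq2 (0.011), limma-voom (0.034) and no filter on low counts (4.72e-06), and Tbx15 for lung against tail tip with limma-voom (0.0242) and no filter (0.0293). Leaving out 1 library gave 8 to 10, 9 to 10, 5 to 7 and 0 to 0 called of the 10 genes for cardiac against lung, cardiac against tail tip, lung against tail tip and Ad-Cre against Ad-GFP.

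For Ad-Cre against Ad-GFP common to the origins, no filter on low counts called 1 of the 10 genes, Tcf21 (log2 fold change -1.67, adjusted p = 0.0233), and 141 genes in all. Among all genes DESeq2 called 3, leaving out 1 library 11 to 109, and leaving out the cardiac, lung and tail tip pair 3, 0 and 36. This log2 fold change turned round with limma-voom for Tbx2 (-0.094), Tbx5 (0.021), Tbx15 (0.015) and Wt1 (-0.0044). It did so without the origin term for Tbx2 (-0.19), Tbx5 (0.10) and Tbx15 (0.044). Without the cardiac pair it did so for Tbx4 (-0.081), Tbx5 (0.34), Tbx15 (0.061) and Tbx18 (-0.046), without the lung pair for Tbx2 (-0.11) and without the tail tip pair for Tbx18 (-0.068). Over the fits without 1 library it ran from -0.12 to 0.31 for Tbx2, -0.10 to 1.08 for Tbx4, -0.94 to 0.34 for Tbx5, -0.31 to 0.069 for Tbx15, -0.060 to 0.12 for Tbx18, -0.74 to 0.0061 for Tbx20 and -1.13 to 0.83 for Hand2. The cause was not tested.

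A prior count of 0.5 put 2 of the 10 genes past 2-fold in lung (Wt1 added) and 1 in tail tip (Tbx20), where 965 of all genes passed, against 563. Without TMM factors the cardiac log2 ratio of Tbx20 was -0.62, against -0.70. Over all genes, cardiac against tail tip gave 9208 calls without the cardiac Ad-Cre library, 3338 and 3110 without the tail tip Ad-Cre and Ad-GFP library, against 6077, and lung against tail tip gave 5995 without the tail tip Ad-GFP library, against 9175. Values of the virus comparison were left out where the complete pairs held fewer than 10 reads in sum. This was so for Tcf21 and Wt1 without either cardiac library. Tcf21 then had 0 reads, and Wt1 had 1 read in lung and 6 reads in tail tip. The virus comparison is paired by origin, over 3 pairs, and without the origin term 0 of the 10 genes were called, with Hand2, Tcf21 and Wt1 not tested.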
